A study of Mus musculus with 3 samples.

Results

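The genes described are 44 ligands, receptors, antagonists, Smad proteins and Id targets of bone morphogenetic protein (BMP), growth and differentiation factor (GDF) and activin signalling. They were read from a list of binding sites of the forkhead transcription factor Foxf2 in the embryonic mouse tongue. A binding site, or peak, was counted for a member when the transcription start site (TSS) nearest to its midpoint, among those of protein-coding genes, belonged to that member. Of the 25704 peaks on chromosomes, 202 were nearest to a member, and 34 of the 44 members had at least 1 peak. In all, 8173 of 21938 protein-coding genes had one (37.3%).

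The peaks came from chromatin immunoprecipitation and sequencing (ChIP-seq) with an anti-FLAG antibody. The tongues were dissected at E12.5 (embryonic day) from mouse embryos homozygous for a Foxf2 allele that was tagged with 3xFLAG at its own locus by CRISPR/Cas9 editing (Foxf2FLAG/FLAG). The labels give 2 ChIP libraries and 1 input library of the same tissue without antibody, all of that genotype and age. They state 75 tongues, and whether this is the number for each library or in all is not stated. The list holds 1 score per peak and no values per library, so no value below has a replicate error and no test was made. Intervals cover counting only, since peaks around 1 gene share its surroundings and are not replicates. The depth is unknown, a ChIP with the antibody on untagged tongues was not analysed here, and the list holds no RNA level with which to check the tissue or to say which members the tongue expresses.

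As background, BMPs, GDFs and activins are secreted dimers of the TGF-beta superfamily that bring type I and type II receptor kinases together at the cell surface. BMP receptors then phosphorylate Smad1, Smad5 and Smad9, which enter the nucleus and switch on targets such as the Id genes, whereas Smad6 inhibits the same receptors. Secreted antagonists such as Noggin, Chordin and Gremlin hold the ligands away from their receptors. In the embryonic mouth these signals pass between the epithelium and the mesenchyme derived from neural crest. Forkhead proteins, the class of Foxf2, bind DNA through a winged-helix domain at a short core that begins with a purine followed by TAAA.

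The sequences carried the forkhead core in most of the peaks with high scores, and 18 of them are shown because they cover every role among the members. The score is the authors' value for the peak and ranks peaks within the list. Each line gives 27 bases of the mouse genome (mm10, GRCm38) around the core nearest to the peak's midpoint, written 5′ to 3′ on the strand that reads the core, and the capitals mark the core. The first 5 lines are ligands, the next 3 receptors, the next 4 antagonists, the next 2 Smad genes and the last 4 Id genes. All are from non-exonic DNA.
Bmp5, chr9:75870467-75870493, minus strand: acttcaatacATAAACActtttacaac
Gdf6, chr4:10329549-10329575, minus strand: acaatgaagtATAAACAcaagctcatt
Bmp2, chr2:133346343-133346369, plus strand: tctgggttatGTAAACAgtggcgtgtt
Bmp7, chr2:172867711-172867737, plus strand: tatgttagcaGTAAACAcagctaattt
Inhba, chr13:15990262-15990288, minus strand: tgacagaaacATAAACAgtgccagaca
Acvr2a, chr2:48561996-48562022, plus strand: gtccagaggaATAAACAagaacatttt
Bmpr2, chr1:59833917-59833943, plus strand: tccaggatatGTAAACAgaaacatccc
Bmpr1b, chr3:142060028-142060054, plus strand: aggcagctatATAAACAgctcactgcc
Bmper, chr9:23061633-23061659, plus strand: gatccccaaaATAAACAgaggctgcag
Fstl1, chr16:37778124-37778150, plus strand: gggacagaaaATAAACAattctaaatt
Grem1, chr2:113605654-113605680, plus strand: aaggtacccaGTAAATAtttaaagaaa
Nog, chr11:89298729-89298755, minus strand: ttcatgcctgGTAAACAcgcgaattat
Smad6, chr9:63915196-63915222, minus strand: tagcaaatgtGTAAACAtcatgacagt
Smad5, chr13:56698841-56698867, minus strand: tttatgcatgGTAAACAactagtgtgt
Id2, chr12:25182913-25182939, plus strand: tgccttttctGTAAACAgctcgggtct
Id2, chr12:25650443-25650469, minus strand: atgttagaacATAAACAgatccaaaaa
Id3, chr4:136149978-136150004, plus strand: aacctctaaaATAAACAacagataagt
Id4, chr13:48057760-48057786, plus strand: tgtcaaaagaATAAATAcacacaaaga
Every line is from the member's highest-scored peak that holds a core and lies away from exons, and Id2 is shown with its highest and second highest. The core letters differ among them: Bmp2, Bmp7, Bmpr2, Nog, Smad6, Smad5 and the first Id2 peak hold GTAAACA, whereas Grem1 holds GTAAATA, Id4 holds ATAAATA and the others hold ATAAACA. Over the 134 member peaks away from exons that hold a core, the base before the core was T in 57 (42.5%), A in 36, C in 25 and G in 16. This base was counted for member peaks only, and whether its shares differ from those of the whole list was not tested.

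Longer stretches of 121 bases around the midpoint are shown for peaks of a Smad gene, a ligand, an antagonist and an Id gene. They differ in how many cores they hold. The letters follow the plus strand of mm10, and capitals mark a core on either strand, so a core on the minus strand reads with TGTTTA at its start.
Smad6, chr9:63915146-63915266, plus strand: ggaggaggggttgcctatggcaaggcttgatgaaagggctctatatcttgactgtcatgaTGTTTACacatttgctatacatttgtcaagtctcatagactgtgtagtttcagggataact
Bmp5, chr9:75870420-75870540, plus strand: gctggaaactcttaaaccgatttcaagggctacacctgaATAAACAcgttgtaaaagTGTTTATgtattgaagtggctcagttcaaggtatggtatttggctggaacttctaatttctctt
Bmper, chr9:23061556-23061676, plus strand: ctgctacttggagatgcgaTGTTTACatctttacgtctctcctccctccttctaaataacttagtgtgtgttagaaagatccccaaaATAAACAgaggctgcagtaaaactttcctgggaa
Id2, chr12:25650412-25650532, plus strand: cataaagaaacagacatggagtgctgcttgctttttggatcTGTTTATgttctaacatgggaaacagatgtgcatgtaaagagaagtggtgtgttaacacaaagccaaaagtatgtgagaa
The Smad6 stretch holds 1 core and the Bmp5 stretch 2, which face in opposite directions. The Bmper stretch also holds 2. The Id2 stretch holds 1 core and, on the same strand as the core, a CATCTG E-box, the kind of site that basic helix-loop-helix proteins bind.

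All 9 receptors and all 4 Smad genes had at least 1 peak. Of the other roles, 12 of 20 ligands, 6 of 7 antagonists and 3 of 4 Id genes did. The background over all protein-coding genes was 37.3%, as above, and the members' share was 77.3%. The peaks were divided among the roles as 83 near ligands, 55 near receptors, 32 near antagonists, 15 near Smad genes and 17 near Id genes. The members without a peak were the ligand genes Bmp8a, Bmp8b, Gdf2, Gdf3, Gdf5, Gdf9, Gdf11 and Inha, the antagonist Chrd, which encodes Chordin, and Id1. A member without a peak had no nearest peak in this list, which is not a measurement of zero binding.

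**Figure D1:**
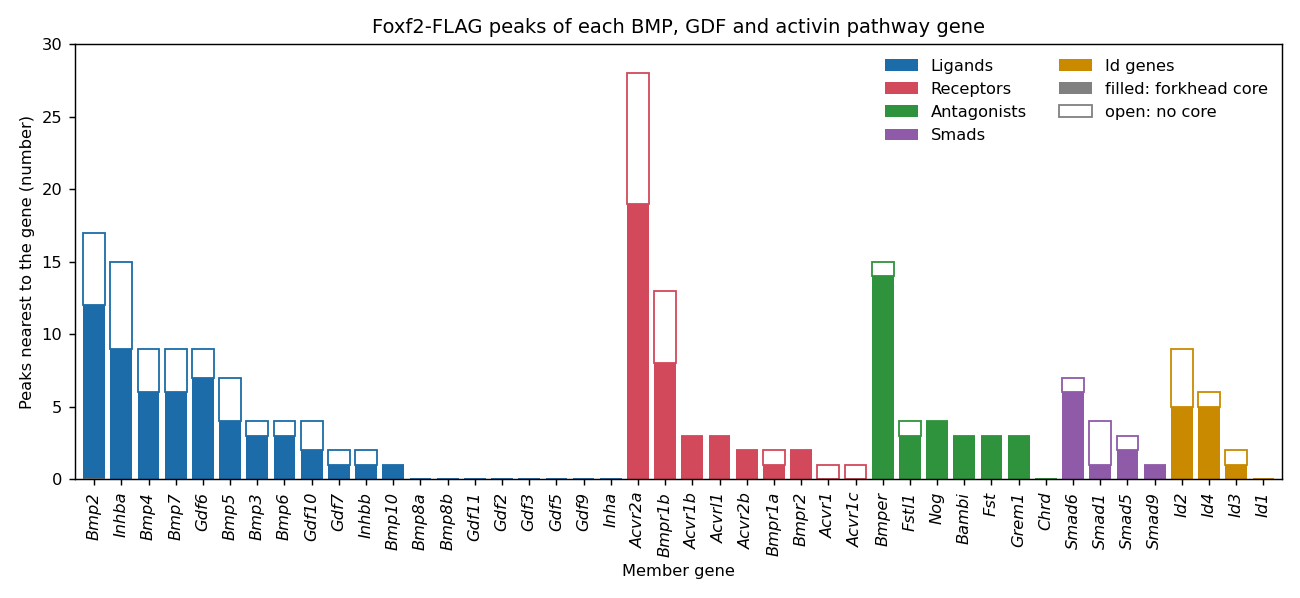
Peaks nearest to each of the 44 members (bars, number of peaks), grouped by role, with peaks that hold a forkhead core filled and the others open. Acvr2a stands highest at 28, followed by Bmp2 at 17 and by Inhba and Bmper at 15 each, and 10 members have none.

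The peaks were spread unevenly. Acvr2a had 28, Bmp2 17, Inhba and Bmper 15 each and Bmpr1b 13, so that 5 genes held 88 of the 202 peaks (43.6%). These are the 5 members with 10 or more peaks, a number reached by 2.26% of all genes. The median over the 44 members was 3 peaks, and over all genes it was 0. A peak at or above the list's median score of 16.2 was found for 29 members, and 24.6% of all genes had one.

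The number of peaks a gene receives by this rule depends on how much DNA lies nearest to it, here called its territory. Members have large territories: the median was 137.7 kb against 47.0 kb for all genes, and 22 of the 44 were in the highest 2 deciles of genes by territory. All 13 members in the ninth decile and all 9 in the tenth had a peak, and among all genes of those deciles 72.7% and 81.5% did. Of the 6 members in the lowest 2 deciles none had a peak, beside 8.11% and 13.0% of all genes there. Per Mb of territory the members held 18.3 peaks (95% exact Poisson interval 15.8 to 21.0), and all genes held 9.43. The density was 19.9 for ligands, 17.9 for receptors, 17 for antagonists, 32.6 for Smad genes (interval 18.2 to 53.7) and 11.6 for Id genes (6.74 to 18.5). Leaving out Acvr2a, the member with the most peaks, gave 19.0 peaks per Mb over the remaining members.

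**Figure D2:**
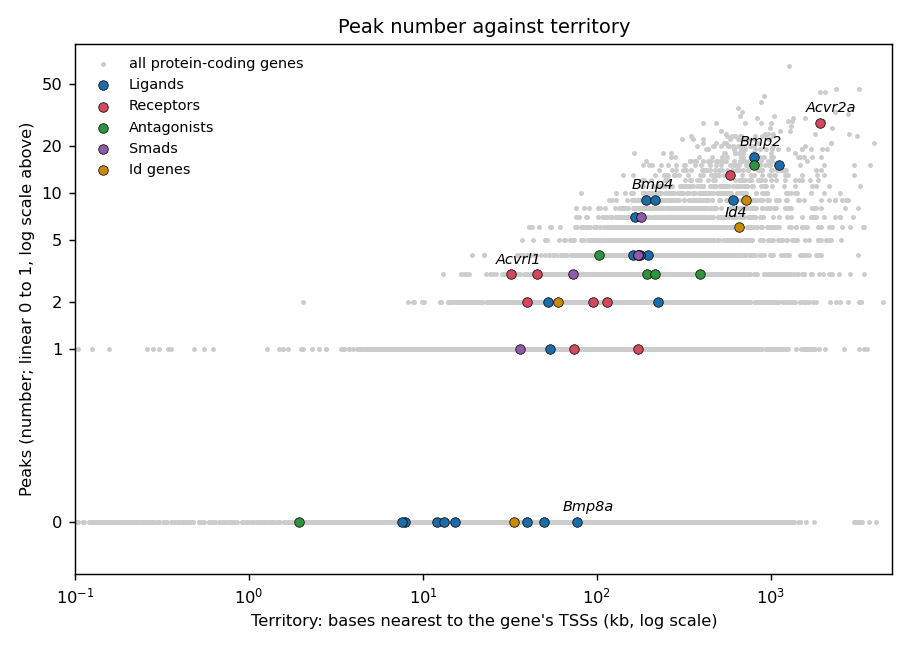
Peaks per gene (number, linear from 0 to 1 and log scale above) against the gene's territory (kb, log scale), with members coloured by role over all protein-coding genes in grey. The axis starts at 0.1 kb, so 66 genes with smaller territories are not drawn. Acvr2a has the largest territory among the members. The members without a peak have territories of 76.6 kb or less, a range that also holds members with peaks.

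Ordering by density changed the ranking of the members. Acvrl1, a type I receptor known from vascular endothelium, had 3 peaks in 31.9 kb, or 9.40 per 100 kb. Its neighbour Acvr1b, a type I receptor for activins whose TSS lies 39.9 kb away, had 6.66 per 100 kb, and Acvr2b, a type II receptor, had 5.02. The ligands Bmp4, Bmp5 and Bmp7 had 4.72, 4.23 and 4.2 per 100 kb, and Smad5 had 4.14. The genes with most peaks were lower on this scale, with Bmpr1b at 2.23, Bmp2 at 2.11, Bmper at 1.87, Acvr2a at 1.46 and Inhba at 1.34 per 100 kb. All 5 stood above the density over all genes, 9.43 per Mb.

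Among the ligands, Bmp2, which acts in cartilage, bone and heart development, had 17 peaks and none inside the gene. They lay from 14.4 kb to 442.8 kb from the TSS, 8 upstream and 9 downstream. The highest, at chr2:133346247-133346459, scored 64.3 and lay 205.8 kb upstream with a GTAAACA core 3 bp from its midpoint. The next scored 45.8 and lay 277.6 kb upstream, and the other 15 scored between 10.9 and 22.5. Bmp2 sits between Fermt1, whose TSS is 606.3 kb away, and Hao1, 1002 kb away.

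Bmp4, a ligand of the tooth, palate and tongue primordia, had 9 peaks, 8 of them upstream. Scores were 36.9, 32.5, 20.5, 17.7, 17.1, 16.7, 13.8, 12.8 and 12.2, and the 5 highest lay between 64.0 kb and 155.6 kb upstream. The highest was at chr14:46454574-46454786 with an ATAAACA core. The 1 peak downstream of the TSS lay at 4.21 kb and scored 16.7. A pair of the upstream peaks were 640 bp apart, each with 2 cores.

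Bmp5 had 7 peaks, 5 of them inside the gene. The highest, in an intron 95.1 kb into the gene at chr9:75870374-75870586, scored 70.6, and the next, 24.2 kb from the TSS, scored 58.8. The other 5 scored 19.5, 16.5, 14.4, 13.2 and 11.1, so the pair of intronic peaks stood well above them. The peak at the Bmp5 TSS itself, 8 bp upstream, scored 14.4 and held no core. Bmp7, which is required for eye and kidney formation, had 9 peaks, 8 of them downstream of the TSS. The highest, at chr2:172867626-172867838, lay 72.6 kb downstream and scored 42.2, and a second, 70.7 kb downstream, scored 25.9. Another pair lay 5.28 kb and 6.33 kb from the TSS with scores of 22.7 and 22.8.

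Bmp6 had 4 peaks, with 37.3 at chr13:38320612-38320824 and 30.1 as the higher scores and 15.3 and 10.2 as the lower. The higher pair lay 24.4 kb and 17.6 kb upstream. Bmp3, an atypical family member that opposes osteogenic BMPs, had 4 peaks of 18.6, 16.5, 14.3 and 13.9, and 3 of them lay inside Cfap299 rather than in Bmp3 or between genes. Its highest was at chr5:98707987-98708199, 146.3 kb upstream. Bmp10, the cardiac ligand, had 1 peak of 18.6 with 3 cores, 12.7 kb downstream of the TSS.

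Of the GDF genes, Gdf6, which is required for joint formation, had 9 peaks, Gdf10 4 and Gdf7 2. The highest Gdf6 peak, at chr4:10329450-10329662, scored 68.3 and lay 485.2 kb downstream, and a weaker peak of 17.2 lay 761 bp from it. The remaining 7 scored between 10.5 and 28.6. The 4 peaks of Gdf10 were all upstream, between 26.7 kb and 139.2 kb, and scored 26.3 (at chr14:33833076-33833288), 19.4, 18.5 and 13.5. Gdf2 is the neighbour of Gdf10 with a TSS 17.5 kb away and had none. The Gdf7 pair scored 13.5 and 10.8.

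Inhba, which encodes the activin beta-A subunit, had 15 peaks over a wide region between Gli3 (TSS 547.9 kb away) and Sugct (1680 kb away). The peaks reached from 252.3 kb upstream to 816.2 kb downstream. The highest was 33.6, at chr13:15990165-15990377, 21.6 kb upstream, and the second was 27.8. The other 13 scored between 11.0 and 19.2. Of these, 2 lay inside the gene. The peak of 14.9 lay 1.08 kb upstream of the nearer of the gene's 2 TSSs and had no core. The peak of 12.1 lay 4.345 kb downstream of the nearer TSS and held an ATAAACA core. Inhbb, the beta-B subunit, had 2 peaks of 18.6 and 12.7, both over 100 kb downstream. Inha, the inhibin alpha subunit, had none and has a territory of 7.58 kb.

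Among the receptors, Acvr2a, a type II receptor shared by activins and several BMPs, had the most peaks of any member. Of its 28 peaks, 27 lay upstream of the TSS, 25 lay beyond 100 kb, and the farthest was 1718 kb away. The next protein-coding TSS upstream is that of Zeb2, 3697 kb from Acvr2a, so the rule divides this stretch of DNA between them, and Zeb2 also received 28 peaks. The highest Acvr2a peak scored 67.6 at chr2:48561914-48562126, 252.1 kb upstream, with an ATAAACA core. The second, 991.1 kb upstream, scored 46.4 and held no core, and the third scored 39.2. The lowest scored 10.3, the median was 17.4, and 16 of the 28 were at or above the list's median. The peak nearest to the TSS, 533 bp upstream, scored 13.8 and held no core, and the 1 peak inside the gene, 55.8 kb downstream of the TSS, scored 10.7. Whether the distant peaks act on Acvr2a, on Zeb2 or on neither was not tested. When TSSs of every gene type were used, 2 peaks were left with Acvr2a, and 13 went to the lincRNA gene Gm13481.

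Bmpr1b, a type I BMP receptor of skeletal precursors, had 13 peaks, of which 11 lay inside the gene, 1 inside its neighbour Unc5c and 1 between genes. The highest scored 28.5, at chr3:142059981-142060193, and held 2 cores. The others scored between 10.3 and 22.8, and 4 of the 13 were at or above the list's median. The type I receptor Bmpr1a had 2 peaks, 676 bp apart within the gene, of 11.3 and 11.2. The 1 peak of Acvr1 scored 10.4 and the 1 peak of Acvr1c 11.1, both without a core. Bmpr1a, Acvr1 and Acvr1c were therefore counted only through peaks near the lowest score of the list, 10.1. Bmpr2, the type II receptor of BMPs, had an intronic pair of 33.2 and 13.3, which lay 70.5 kb and 72.5 kb downstream of its TSS, each with 1 core.

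Acvr1b and Acvrl1 lie side by side, and each had 3 peaks. Acvr1b had scores of 19.6, 19.0 and 12.1, all with a core, and the highest, at chr15:101173352-101173564, lay 609 bp upstream of the TSS. Acvrl1 had scores of 40.7, 25 and 12.1, again all with a core. Its highest peak, at chr15:101134061-101134273, lay 34 bp downstream of a TSS in an exon, and it was the highest of all member peaks within 1 kb of a TSS. Acvr2b had 2 peaks of 17.1 and 14.1, at 6.29 kb upstream and 179 bp downstream.

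Among the antagonists, Bmper, a chordin-like protein that binds BMPs outside the cell, had 15 of the 32 peaks. Of the 15, 12 lay upstream, 2 of them inside Bbs9. The highest scored 38.2, at chr9:23051226-23051438, 171.7 kb upstream, and was the only Bmper peak without a core. It was followed by 37.1, 35.5, 26.4, 25 and 22.7, and the other 9 scored between 11.3 and 18.7. No Bmper peak lay within 10 kb of the TSS, and 1 of them held 5 cores.

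Chrd had no peak, and the remaining antagonists had 3 or 4 each. Nog, which encodes Noggin, had 18.7, 14.4, 12.8 and 10.9, and the highest, at chr11:89298622-89298834, lay 3.60 kb downstream of the TSS with a GTAAACA core. Fstl1, a follistatin-like BMP-binding protein, had 30.9, 14.6, 13.7 and 12.9, with the highest in an intron at 1.24 kb (chr16:37778008-37778220). Fst, which encodes follistatin and binds activins, had 14.9 (chr13:114456879-114457091), 12.2 and 10.7. All 3 Fst peaks were below the list's median score. Grem1, which encodes Gremlin, had 19.6 (chr2:113605552-113605764), 15.1 and 13.0, and all 3 lay inside the neighbouring gene Fmn1, between 94.4 kb and 153.0 kb from the Grem1 TSS. Assigning a peak to the gene that holds it left Grem1 with none. Bambi, a receptor-like protein without a kinase domain that blocks type I receptors, had 20.5, 14.0 and 13.3, all with a core. The highest lay 109.2 kb downstream of its TSS (chr18:3617043-3617255) and the lowest 17 bp downstream.

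Among the Smad genes, Smad6 had 7 peaks with scores of 152.1, 34.6, 21.0, 20.4, 13.9, 13.5 and 10.9. The highest ranked 29 of all peaks in the list and was the highest of the members. It lay at chr9:63915100-63915312, 106.8 kb downstream of the Smad6 TSS and past the end of the gene, between Smad6 and Smad3, whose TSS is 264.0 kb from that of Smad6. Its GTAAACA core sat 3 bp from the midpoint. The next Smad6 peak scored 34.6, so this peak stood far above the rest. A peak 15 bp from the Smad6 TSS scored 13.9 and held no core.

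The receptor-regulated Smads had fewer. Smad1 had 21.9 (chr8:79381874-79382086), 18.7, 14.4 and 11.5, and only the lowest held a core. Smad5 had 27.7, 13.1 and 11.9, with the highest 4.17 kb upstream (chr13:56698736-56698948), and Smad9 had 1 intronic peak of 18.

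Among the Id genes, whose proteins block basic helix-loop-helix factors, Id2 had 9 peaks. Scores were 57.2, 51.0, 41.6, 31.3, 17.9, 17.5, 16.6, 15.6 and 11.8, and 7 of the 9 were at or above the list's median. The highest was at chr12:25182819-25183031, 85.8 kb upstream, and the next pair lay 553.3 kb and 436.9 kb upstream, in a stretch that runs 1318 kb to the TSS of Rnf144a. Closer to the gene, peaks lay 9.77 kb and 2.92 kb upstream and 1.35 kb downstream. Id4 had 6 peaks between 12.7 and 18.8, all upstream, and 5 of them lay between 203.5 kb and 364.4 kb away. Its highest was at chr13:48057625-48057837. Id3 had 2 peaks, 25.7 at 2.92 kb upstream and 22.0 at 6.49 kb downstream. Of the 17 Id peaks 15 lay upstream, 8 of them at Id2 and 6 at Id4, beside 44.2% of all peaks. The next protein-coding TSS lies 1318 kb upstream and 121.1 kb downstream of Id2, and 1067 kb and 245.7 kb for Id4. The rule thus gives both genes more DNA upstream than downstream, and its part in the side of the peaks was not tested.

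**Figure D3:**
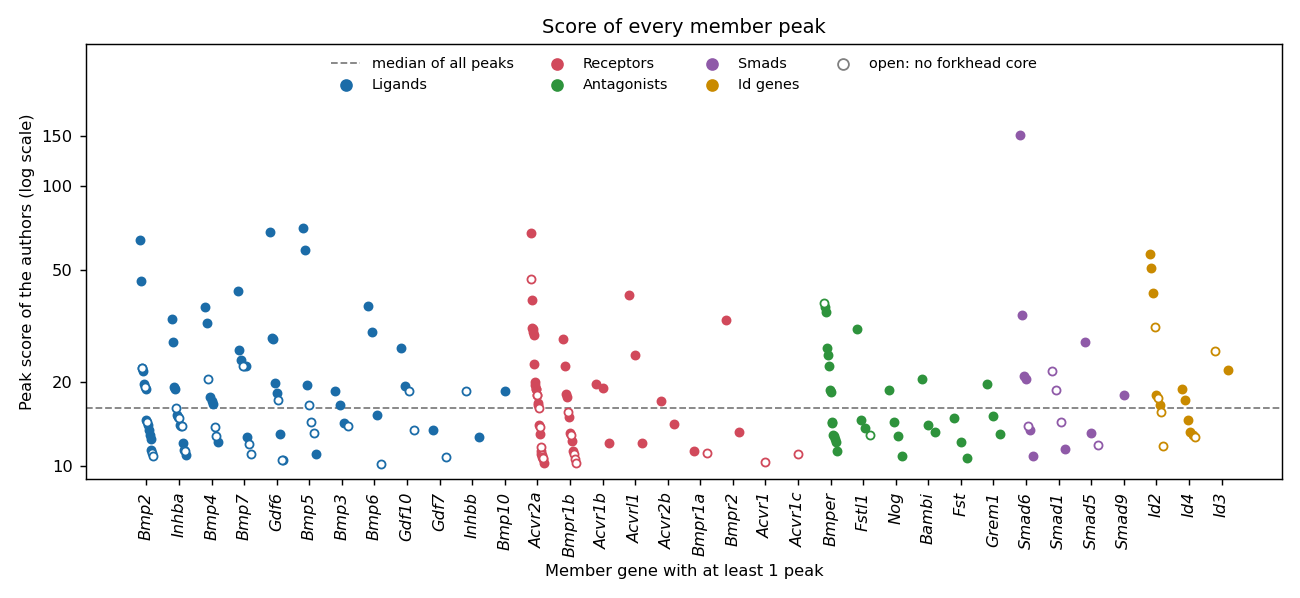
The authors' score of every member peak (log scale) by gene, coloured by role, with peaks that hold a forkhead core filled, those without open, and the median of all peaks in the list as a dashed line. The Smad6 peak at 152.1 stands alone, and most genes have peaks on both sides of the median of 16.2.

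The median score of member peaks was close to that of the whole list, with a lower upper quartile. It was 16.1 (quartiles 12.8 and 22.0, range 10.2 to 152.1), and that of all peaks was 16.2 (quartiles 12.3 and 24.5). By role the medians were 16.5 for ligands, 15.6 for receptors, 14.4 for antagonists, 18 for Smad genes and 17.5 for Id genes. Of the 202 peaks, 100 (49.5%) were at or above the list's median, and 14 (6.93%) fell in its highest decile. Scores of 50 or more were reached by 8 peaks of 6 genes, Smad6, Bmp5, Gdf6, Acvr2a, Bmp2 and Id2, a share of 3.96% against 5.51% of all peaks. All 8 held a core, and 7 lay beyond 50 kb.

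Member peaks lay farther from their genes than peaks in general. The median distance was 89.9 kb, and for all peaks 51.3 kb, and leaving out Acvr2a gave 72.0 kb. Of the 202, 95 (47.0%) lay beyond 100 kb, where the background over all peaks was 33.8%, and 35 (17.3%) lay within 10 kb, where it was 20.9%. Counted by gene, 20 members had a peak within 10 kb, beside 19.4% of all genes. Inside the nearest gene lay 52 member peaks (25.7%) against 37.4% of all peaks, whereas 140 (69.3%) lay between genes against 53.2%. The larger territories of the members go together with these distances, and their part in them was not tested. Peaks lay upstream in 110 cases (54.5%, against 44.2% of all peaks). Acvr2a alone gave 27 of these 110, 25 of the 95 beyond 100 kb and 27 of the 140 between genes. Peaks of the same member were spaced by a median of 23.4 kb, and those of all genes by 22.5 kb.

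**Figure D4:**
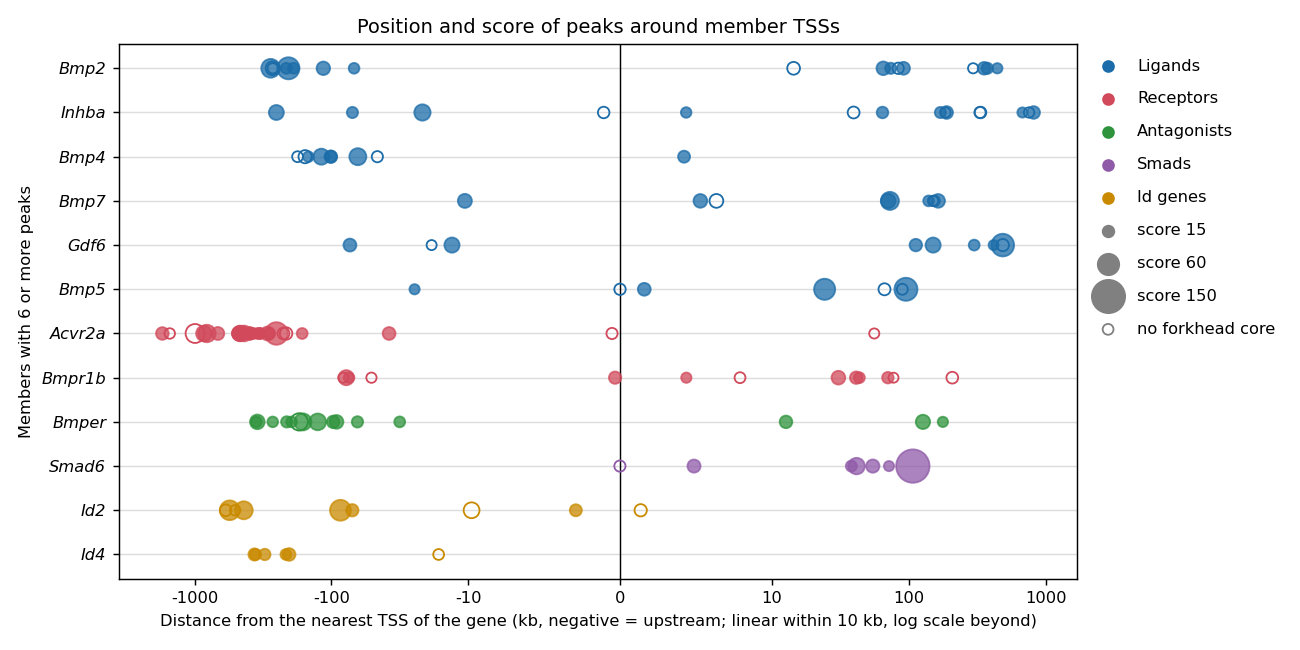
Peaks around the TSS of the members with 6 or more peaks: distance from the TSS (kb, negative upstream, linear within 10 kb and log scale beyond), with the size of a point giving the score, the colour the role, and open points having no forkhead core. Acvr2a and Id4 have nearly all peaks upstream, Bmp7 and Smad6 most of them downstream, and Bmp2 on both sides.

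Few peaks sat at promoters. A promoter was taken as the DNA between 1000 bp before and 100 bp after a TSS. It held 7 member peaks (3.47%, exact 95% interval 1.40% to 7.01%), 1 each at 7 genes, and 6.02% of all peaks lay in such a promoter of their nearest gene. By gene, 7 of the 44 members had a promoter peak, beside 6.83% of all protein-coding genes. The members' share was thus lower than the background by peak, where the interval covers it, and higher by gene. The 7 were Acvr1b, Acvr2a, Acvrl1, Bambi, Bmp5, Bmpr1b and Smad6, 4 of them receptors. With Acvr2b at 179 bp and Smad5 at 423 bp downstream, 9 members had a peak within 1 kb. The share of all genes for this 1 kb limit is not given here, so this count has no background. The scores of those 9 peaks ran from 13.1 at Smad5 to 40.7 at Acvrl1, and 6 of them held a core. Of the pair at the receptors Bmpr1b and Acvr1b, the first scored 17.7 and held GTAAACA 331 bp upstream of the TSS, and the other held ATAAATA.

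The forkhead core was searched on both strands as GTAAACA, as ATAAACA, as GTAAATA and as ATAAATA, in a window of 200 bp centred on the midpoint. It was found in 144 of the 202 member peaks (71.3%, exact 95% interval 64.5% to 77.4%), and 72.5% of all peaks held it. In windows of the same length 2000 bp to either side it was found in 21.5% for members. By gene, 32 members had a peak with the core, against 31.5% of all genes. Acvr1 and Acvr1c, with 1 peak each, were the members with peaks but no core. The share by role was 66.3% for ligands (55 of 83), 69.1% for receptors (38 of 55), 93.8% for antagonists (30 of 32, interval 79.2% to 99.2%), 66.7% for Smad genes (10 of 15) and 64.7% for Id genes (11 of 17). The antagonist peaks without it were 1 of Bmper and 1 of Fstl1. No test was made of the difference between roles, and 15 of the 32 antagonist peaks belong to Bmper.

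The form GTAAACA alone was found in 53 member peaks (26.2%), and in 27.4% of all peaks. It was in 25 of 83 ligand peaks, 13 of 55 receptor peaks, 10 of 32 antagonist peaks and 4 of 15 Smad peaks. Of the 17 Id peaks only 1 held it, the highest of Id2 (5.88%, interval 0.149% to 28.7%). Taking the core nearest to the midpoint of each of the 144 peaks, ATAAACA stood in 65 (45.1%), GTAAACA in 47 (32.6%), ATAAATA in 19 (13.2%) and GTAAATA in 13 (9.03%). Over all peaks with a core these shares were 45.3%, 33.4%, 11.8% and 9.48%. The nearest core lay within 20 bp of the midpoint in 107 of the 144 (74.3%, and 72.1% over all peaks). Among antagonist peaks with a core this held for 17 of 30 (56.7%), and in every other role for 72.7% or more. At least 2 cores were found in 42 member peaks (20.8%), and in 21.3% of all peaks. Member peaks with a core had a median score of 17.95 and those without 13.85, and over all peaks these were 17.1 and 14.4.

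**Figure D5:**
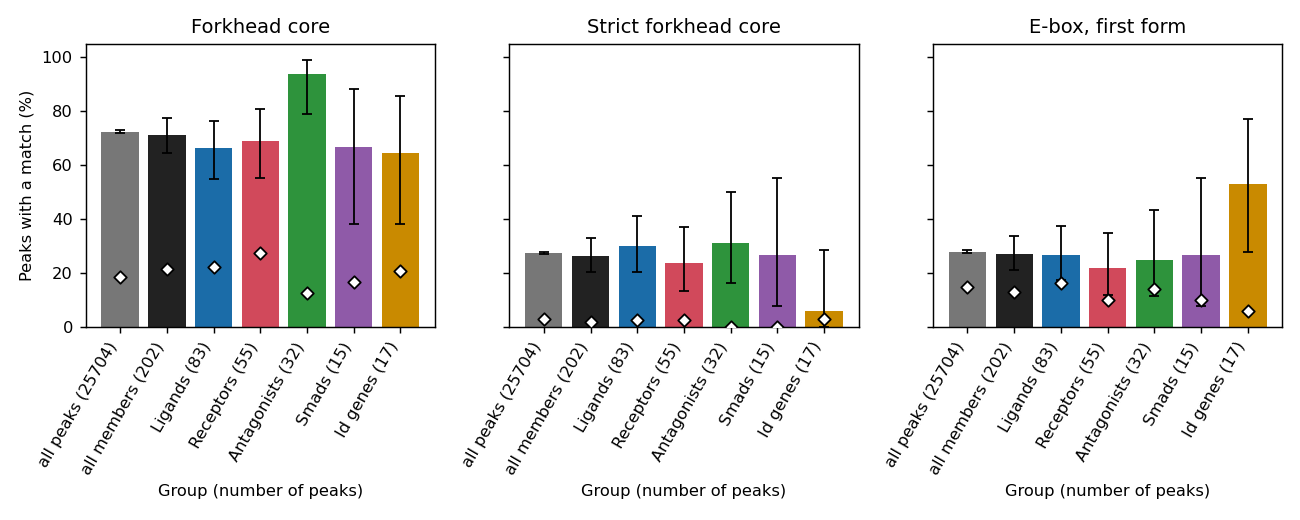
Share of peaks (%) that hold any of the 4 forkhead core forms, GTAAACA alone, and the CATCTG E-box (from left to right) over all peaks, all members and each role. Bars carry exact 95% intervals, and diamonds give the share in windows 2000 bp away. The antagonists stand at 93.8% for the core and the Id genes at 52.9% for the E-box, with wide intervals. The Id interval for the E-box starts at 27.8% and covers the share of all peaks, 28%.

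Further short motifs were counted in the same windows on both strands. They were the E-boxes CATCTG and CAGCTG, the SMAD element CAGAC, the SMAD palindrome GTCTAGAC, the element GGCGCC described for Smad1 and Smad5, and the TEAD site CATTCC. None of these contains a forkhead form, and matches that overlapped were not removed. CATCTG was found in 55 member peaks (27.2%), against a background over all peaks of 28%. The Id genes had it in 9 of 17 peaks (52.9%, interval 27.8% to 77.0%), 7 of them among the 9 peaks of Id2 and 2 among those of Id4, and in 5.88% of flanking windows. CAGCTG was in 40 member peaks (19.8%), and in 18.7% of all peaks. It was in 22 of 83 ligand peaks, 7 of which are near Bmp2.

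CAGAC, which is short enough to occur often, was in 92 member peaks (45.5%) and in 39.1% of their flanks, and 44.2% of all peaks held it. The Id peaks held it in 12 of 17 and in 61.8% of flanks. The palindrome GTCTAGAC was in 1 member peak, the one at the Smad6 TSS, and in 0.202% of all peaks. GGCGCC was in 6 member peaks (2.97%), against 2.42% of all peaks, at Acvr2b, Bambi, Id2, Id3, Inhba and Smad6. CATTCC was in 27 (13.4%), against 15.1%. A match is a run of letters in the window and not a measured site of any of these factors.

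Other genes of the pathway, 40 in a separate list, had a peak in 22 cases (55%), with 95 peaks and 10.7 per Mb of territory (8.66 to 13.1). Over all protein-coding genes 37.3% had a peak, and the density was 9.43 per Mb, which that interval covers. Whether any group of this list differs from that background was not tested. Of 6 co-receptors and partners all had a peak, with 20 at Rgmb and 15 at Rgma, which encode repulsive guidance molecules that act as BMP co-receptors. Of 6 intracellular components 5 did, with 9 at the inhibitory Smad7 and 4 at Smad3. The homeobox targets Msx2 and Msx1 had 8 and 4. Of 15 further extracellular modulators 9 did, with 26 peaks in all. The 11 further ligands and receptors, such as Nodal and Mstn, had none, in a summed territory of 0.378 Mb.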

How the data were processed

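Anti-FLAG ChIP-seq of mouse tongues (2 ChIP libraries, 1 input) was aligned to mm10 with Bowtie2 2.4.1 and handled with SAMtools 1.7.1, and peaks were called with HOMER against the input (per the submitters' processing notes, and the series design text for the input). Not given in the sources used here are the caller's settings, the depth and whether libraries were pooled. The score of each peak was used as deposited by the authors, and its scale is not stated. The focus ratio, a fraction as deposited by the authors, was not used for any result. All 25707 peaks have the same width, and 3 on an unplaced contig were left out.

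The members, roles, lists and motifs were chosen with earlier results of these data known. Each midpoint was assigned to the nearest TSS of a protein-coding gene (GENCODE M21 basic). Motifs were matched in GRCm38. Intervals are 95% exact (Clopper-Pearson for shares, Poisson for densities). Computation used Python 3.11.15 (scipy 1.17.1, pandas 2.3.3, numpy 2.4.6), with figures by matplotlib 3.10.9, and the steps were checked on simulated data. Every member is named with its count, with coordinates for the highest-scored peak of each member with 3 or more peaks, and distances for peaks within 1 kb of a TSS. Alternatives varied the score minimum, distance limit, gene assignment, merging of close peaks, motif form and window, promoter width and the members included.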

Additional observations from a re-analysis of the deposited data

How the results depend on the processing

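Which genes count as having a peak depends most on distance and on the genes allowed to compete for a peak. With peaks within 10 kb only, 20 members, 6 ligands and 5 receptors had one. The members' peaks fell to 35, beside 71 within 50 kb and 107 within 100 kb. Within 10, 50 and 100 kb, 45.5%, 70.5% and 75% of members had a peak, against 19.4%, 31.9% and 35.1% of all genes. With TSSs of every gene type, 72 peaks stayed with members at a median distance of 11.4 kb, and 25 members kept a peak (56.8%, beside 25.9% of all protein-coding genes), since 130 peaks lay nearer to noncoding genes or pseudogenes. Bmp2, Bmp4, Bmp6, Bmpr2, Grem1, Id4, Inhbb, Smad5 and Acvr1c then had none. Among members that kept a peak, Inhba fell from 15 to 2, Gdf6 from 9 to 2, and Id2 and Bmp7 from 9 to 3. Bmpr1b kept 12 of 13, Bmper 12 of 15 and Smad6 4 of 7. Keeping peaks at or above the median score left 100 peaks, 9.04 per Mb (4.73 over all genes) and a forkhead core share of 83% (78.4% over all peaks). GTAAACA alone gave 26.2%, and promoters taken from 2500 bp upstream to 500 bp downstream held 11 peaks. The share of all peaks in this wider promoter is not given here. The other 55 alternative values stayed within 1.5 times the count or within the counting interval, including those without Acvr2a, of which the number, density and core share were added after seeing the data. No paired analysis was possible because the list has no values per library.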
